A study of Mus musculus with 13 samples.

Results

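Of the 27207 Rad21 binding intervals called in wild type CD4+ CD8+ double-positive thymocytes, 1174 (4.32%) overlapped by at least 1 bp both an interval of the cohesin loader NIPBL and an interval of the Mediator subunit Med1. These 1174 Rad21 peaks are the members described here. Overlap of called intervals does not show that the 3 proteins were bound together in the same cell. They were chosen from the 3 deposited interval lists alone, so the overlap itself is a description and carries no test.

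All samples were sorted double-positive cells, immature T cells of the thymus that carry both coreceptors. ChIP-seq, which sequences the DNA that an antibody against a protein brings down, was made from wild type cells of a mixed C57BL\6 and 129 background. Rad21, NIPBL and Med1 had 1 library each. For RNA-seq there were 2 libraries of wild type and 2 of Rad21 KO cells, for which the labels give neither the genetic background nor the way Rad21 was deleted. The 2 ChIP input libraries and 4 Hi-C libraries were not analysed here. Animal ages and the number of mice pooled for a library are likewise not given in the labels.

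Cohesin is a ring-shaped complex that holds DNA strands together and extrudes chromatin loops, and Rad21 is the subunit that closes the ring. NIPBL, with its partner Mau2, loads the ring onto chromatin and drives its movement along DNA. Mediator is a large coactivator that passes signals from transcription factors to RNA polymerase II, and Med1 is the subunit through which nuclear receptors and many enhancers engage it. Cohesin is widely known from sites held by CTCF, where the loader need not be present, while promoters and enhancers are known as places where cohesin, NIPBL and Mediator occur together.

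With 1 library per protein, none of the values on intervals below has a replicate error, and no test between classes of peaks was possible. The lists give chromosome, start and end, with no height, score or p-value per peak, so the strength of binding and the depth behind each interval are unknown. Rad21 chromatin was prepared at 800 mM NaCl and the NIPBL and Med1 chromatin at 150 mM, so the lists also differ in how they were made. No genome or gene annotation of the build of the lists (mm9) was used, so members are named by position, no gene is assigned to them and no sequence is shown.

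NIPBL was the common partner of Rad21 and Med1 the rare one. NIPBL overlapped 10193 Rad21 peaks (37.5%) and Med1 overlapped 1743 (6.41%). Apart from the 1174 members, 9019 Rad21 peaks touched NIPBL only, 569 touched Med1 only and 16445 (60.4%) touched neither. Med1 was present at 11.5% of the Rad21 peaks with NIPBL and at 3.34% of those without it. Over all NIPBL intervals, with or without Rad21, 5820 (11.2%) overlapped Med1, close to the share at Rad21 peaks with NIPBL. Read from the other side, 67.4% of the Rad21 peaks with Med1 also had NIPBL.

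Members used only a small part of the loader and Mediator lists. They touched 1205 of 51994 NIPBL intervals (2.32%) and 1155 of 15112 Med1 intervals (7.64%). Of the 5724 Med1 intervals that overlapped NIPBL, 1153 (20.1%) also overlapped Rad21, against 5.82% of the Med1 intervals without NIPBL. In the whole NIPBL list, 37202 intervals met neither Rad21 nor Med1 and 4497 met Med1 without Rad21. The rest of that list overlapped Rad21, a share close to the 20.1%. Most members were simple in make-up: 1114 touched 1 NIPBL interval, 54 touched 2 and 6 touched 3, and 1139 touched 1 Med1 interval while 35 touched 2.

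The 1 bp rule placed few peaks at its edge. Just inside it, the member at chr1:174429865-174430123 shared 1 bp with NIPBL and 171 bp with Med1. The member at chr4:88286922-88287176 shared 141 bp with NIPBL and 1 bp with Med1, and the member at chr11:3080977-3081320 shared 25 bp with NIPBL and 1 bp with Med1. Just outside, Rad21 peaks at chr10:28313984-28314264, chr14:66818519-66818860 and chr7:80682856-80683093 lay 0, 3 and 4 bp from a Med1 interval that they did not overlap. In all, 87 members had a smaller overlap of at most 50 bp, and 58 peaks with 1 partner had the other within 50 bp.

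At a typical member the 3 intervals overlapped by far more than the 1 bp required. Since the rule asks for overlap with both partners, coverage and centre distances are tied to it. NIPBL covered a median of 86.3% of the Rad21 interval (quartiles 66.8% and 100%) and Med1 a median of 72.5% (51.5% and 94.5%). NIPBL covered the whole Rad21 interval at 393 members and Med1 at 219. The stretch shared by the intervals of all 3 proteins had a median length of 210 bp. At 24 members NIPBL and Med1 touched different parts of the Rad21 interval and shared no base with it in common.

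The centre of the NIPBL interval lay a median of 78 bp from the Rad21 centre (quartiles 32.5 and 178 bp) and the Med1 centre a median of 102 bp (46.5 and 197 bp). Both of these centres were within 100 bp of the Rad21 centre at 396 members (33.7%). The NIPBL centre was the nearer of the 2 at 686 members (58.4%). Between them, NIPBL and Med1 centres were a median of 108 bp apart at members, and 141 bp apart at the 4634 NIPBL and Med1 pairs with no Rad21 on either interval. Overlap with Rad21 as well limits how far the centres can stand apart, so the comparison is tied to the rule. Rad21 peaks with NIPBL only had their NIPBL centre closer, at a median of 57.5 bp, and Rad21 peaks with Med1 only had their Med1 centre at a median of 81 bp.

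The partner centres lay on the same side of the Rad21 centre at 729 members (62.1%). Among the 593 members with both centres at least 50 bp away, 409 (69.0%) had them on the same side. This share was 69.1% without the 3 runs of 10 or more members described below. Both positions are taken from the same Rad21 centre, which by itself places them on the same side more often than on opposite sides, so no joint displacement is read from these shares. A Med1 centre fell inside the NIPBL interval at 948 members (80.7%) and inside the Rad21 interval at 815 (69.4%).

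**Figure D1:**
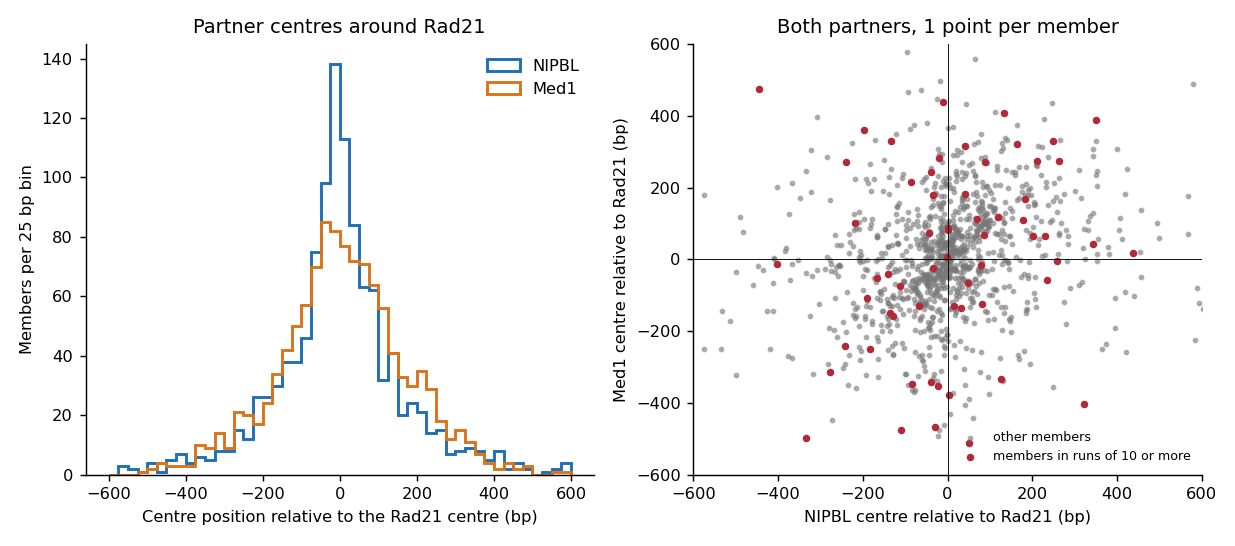
Left, number of members per 25 bp bin by the position of the nearest NIPBL (blue) or Med1 (orange) centre relative to the Rad21 centre in bp. Right, both positions for each member, with members in runs of 10 or more in red; axes end at 600 bp on either side, and 51 members with a partner centre beyond that are not shown in the right panel. NIPBL is the more sharply centred of the partners (median distance 78 against 102 bp), and points lie in all 4 quadrants (62.1% of members on the same side).

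In a few members the centres of the 3 intervals nearly coincided, though their widths could differ. Both partner centres lay within 10 bp of the Rad21 centre at 11 members, 3 of which are named here after their values were seen. At chr7:75095777-75096070 the 294 bp Rad21 peak sat in the middle of a 718 bp NIPBL and a 495 bp Med1 interval. At chr3:145613001-145613390 the order was turned around, with a 194 bp NIPBL and a 202 bp Med1 interval inside a 390 bp Rad21 peak. At chrY:2566681-2566925 all 3 intervals were of nearly equal width (245, 237 and 241 bp). At 30 members the start or the end agreed within 10 bp across all 3 lists.

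Members were about as wide as other Rad21 peaks with the loader, with a longer upper tail. The median width was 331 bp (quartiles 287 and 391 bp) at members and also 331 bp at Rad21 peaks with NIPBL only, against 306 bp with Med1 only and 302 bp with neither. More than 500 bp were spanned by 120 members (10.2%), by 5.80% of the peaks with NIPBL only and by 0.553% of those with neither. Wide intervals overlap others more readily, so width is tied to the rule and was not tested.

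Apart from the widest, the 5 widest members all lay in runs of 5 or more members, described below, and wholly under Med1. The widest, chr3:21834303-21835946, spanned 1644 bp and was covered to 98.4% by a 1672 bp NIPBL interval and to 28.8% by a 473 bp Med1 interval. The next were chr17:39984443-39985873 (1431 bp) and chr17:39982032-39983442 (1411 bp), which lay inside the same NIPBL and the same Med1 interval with 2 other members between them. At chr11:3003534-3004863 (1330 bp) Med1 covered the whole peak and NIPBL 10.8% of it. At chrY:2852019-2853340 (1322 bp) Med1 again covered the whole peak, within a 6049 bp interval, and 3 separate NIPBL intervals covered 86.2%.

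Of the next 4 wide members outside runs of 5 or more, chosen after their values were seen, 3 lay more under NIPBL than under Med1, as the widest did. At chr2:166538227-166539468 (1242 bp) NIPBL covered 92.1% of the peak and Med1 13.8%. At chr1:183811025-183812110 (1086 bp) the values were 83.0% and 28.2%. At chr8:26212114-26213127 (1014 bp) they were 97.2% and 30.1%. The exception was chr4:3017114-3018416 (1303 bp), close to the beginning of the assembled chromosome, with 54.3% under NIPBL and 100% under Med1.

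The loader intervals at members were broad. NIPBL intervals that touched a member had a median width of 384 bp (quartiles 262 and 682 bp, n = 1205), against 315 bp at Rad21 peaks with NIPBL only and 291 bp at NIPBL intervals without Rad21 or Med1. NIPBL intervals that met Med1 but not Rad21 had a median of 425 bp, which was wider than at members. Intervals over 1 kb made up 10.8% of the NIPBL intervals at members, 9.96% of those with Med1 and no Rad21, 5.72% of those at Rad21 peaks with NIPBL only and 2.69% of those with neither. Broad intervals thus made up a larger share of the NIPBL intervals at members and of those with Med1 and no Rad21. In number, most of them (520 and 1002, against 130 and 448) lay at Rad21 peaks with NIPBL only or met neither Rad21 nor Med1. A NIPBL interval at a Rad21 peak with NIPBL only can still meet Med1 outside that peak. Wide intervals also meet others more readily.

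Med1 intervals differed less in median width. It was 340 bp at members, 324 bp at Rad21 peaks with Med1 only, 344 bp with NIPBL and no Rad21, and 353 bp with neither. Med1 intervals over 1 kb made up 3.20% at members, or 1.55% without the runs of 10 or more, 1.47% at Rad21 peaks with Med1 only, 0.897% with NIPBL and no Rad21, and 90 of 8842 intervals with neither. The share of Rad21 and NIPBL peaks that had Med1 was higher where the widest NIPBL interval touched was wider. It was 8.66% of 2645 peaks up to 250 bp, 10.2% of 4496 peaks between 250 and 500 bp, 15.4% of 2258 peaks up to 1000 bp, 17.3% of 721 peaks up to 2000 bp and 20.5% of 73 peaks beyond that. With the runs of 10 or more left out, the first of these shares was 7.65% and the order was the same. The last share rests on 15 members, 5 of them under a single 6056 bp NIPBL interval on chromosome 17 that was kept in both counts. Without those 5 peaks the last share would not exceed the one before it.

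**Figure D2:**
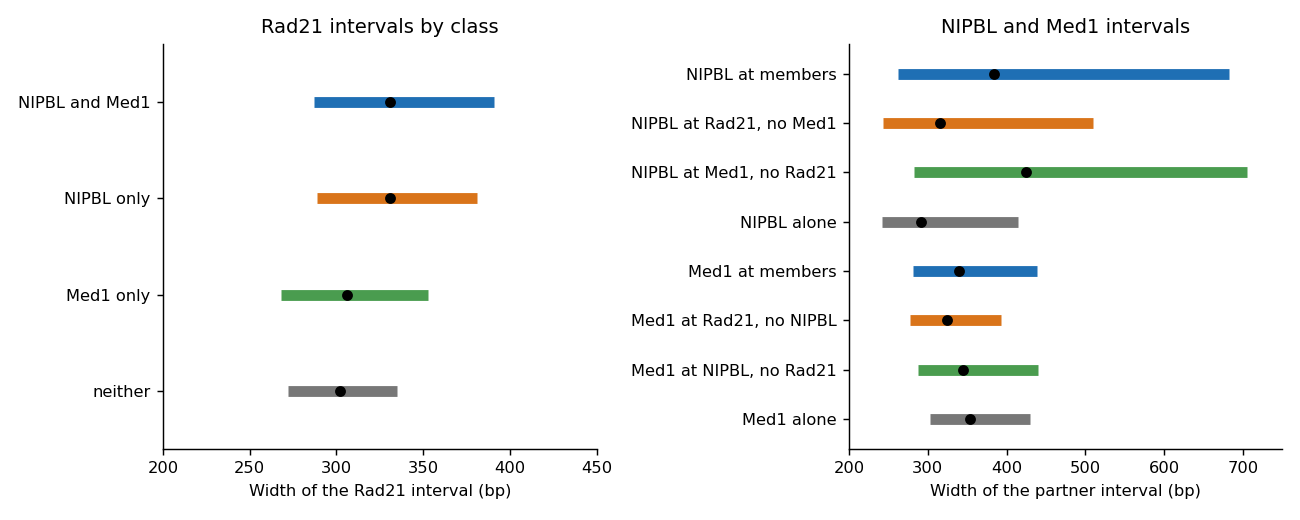
Widths in bp of Rad21 intervals by class (left) and of NIPBL and Med1 intervals by what they overlap (right); dots are medians and bars run from the lower to the upper quartile. Members match the NIPBL-only class in Rad21 width (331 bp each). NIPBL intervals are wider at members and at Med1 without Rad21 (384 and 425 bp) than at NIPBL-only Rad21 peaks and alone (315 and 291 bp). For NIPBL at Rad21, the absence of Med1 refers to the Rad21 peak.

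Other intervals of all 3 proteins lay near members more often than near peaks with neither partner. The rule did not count these other intervals, but overlaps arise more readily where lists are dense, and this was not tested. Members had a median of 0 other Rad21, 1 other NIPBL and 0 other Med1 intervals within 5 kb. Outside the 3 runs of 10 or more, members had means of 3.85 Rad21, 10.3 NIPBL and 3.40 Med1 intervals within 50 kb. Peaks with NIPBL only had means of 4.19, 11.9 and 1.91. Within 5 kb of the centre, counting only intervals that did not touch the member itself, 46.1% of members had another Rad21 peak, 70.5% another NIPBL interval and 41.4% another Med1 interval. For Rad21 peaks with NIPBL only the shares were 41.0%, 63.0% and 18.0%, and for those with neither 23.7%, 27.5% and 9.36%. Without the 3 runs of 10 or more the members' shares were 42.2%, 68.4% and 37.2%. For all Rad21 peaks with Med1 only, including those that lay within these runs, they were 34.3%, 48.0% and 36.6%. Members thus stood near the NIPBL-only class in further Rad21 and NIPBL intervals, and near the Med1-only class in further Med1 intervals.

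The extra Med1 intervals were close by. Between 500 and 1000 bp from the centre, members outside the runs of 10 or more had 0.133 other Med1 intervals per kb, against 0.0393 for the NIPBL-only class and 0.0127 for the class with neither. The Med1-only class, whose peaks within those runs were kept, had 0.176 per kb. With the runs kept, members had 0.167. Between 50 and 100 kb the values were 0.0229 for members outside the runs, 0.0159 with NIPBL only and 0.0129 with neither. With the runs kept, they were 0.0317 for members and 0.0302 with Med1 only. Other NIPBL intervals were as dense around members as around NIPBL-only peaks at the short distance (0.317 and 0.296 per kb) and a little sparser between 5 and 10 kb (0.121 and 0.140). With chromosomes 1, 17 and Y also left out, for the reason given below, another Med1 interval lay within 5 kb of 33.1% of members and 16.8% of NIPBL-only peaks.

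**Figure D3:**
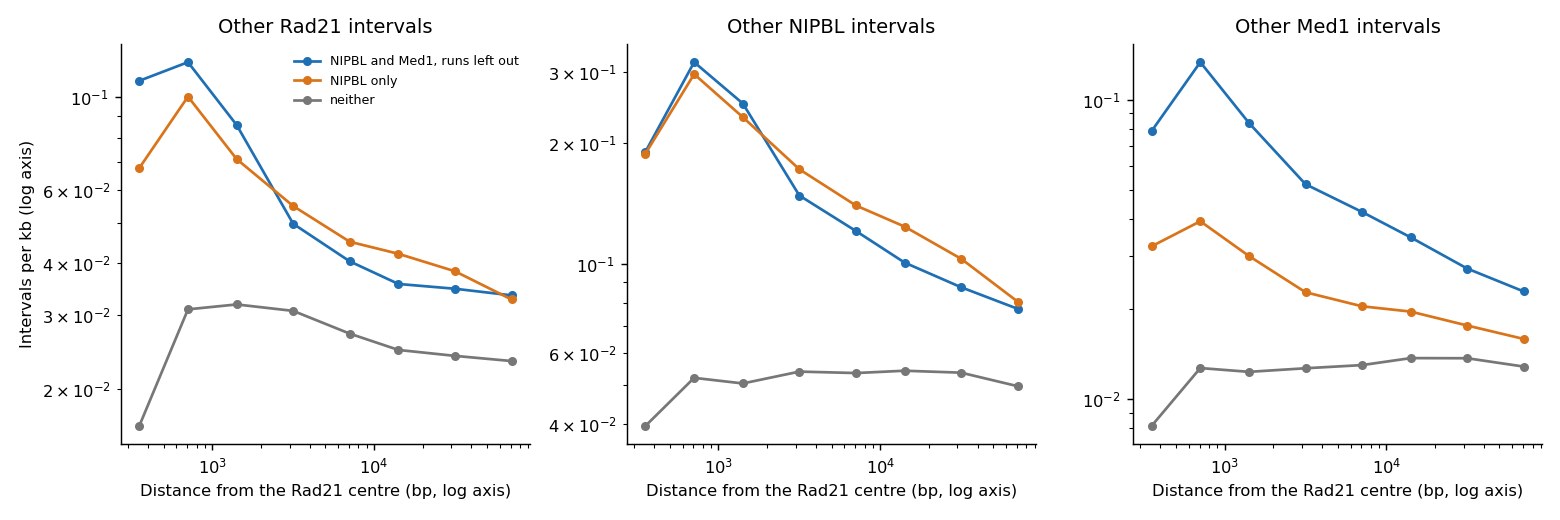
Number of other Rad21, NIPBL and Med1 intervals per kb (log axis) against distance from the centre of the Rad21 peak in bp (log axis), for members outside runs of 10 or more (blue), peaks with NIPBL only (orange) and peaks with neither (grey). For Med1 the blue line lies above the orange one at every distance (0.133 against 0.0393 per kb between 500 and 1000 bp); for Rad21 and NIPBL the lines cross, with a gap for Rad21 at the near end (0.109 against 0.0676 per kb between 250 and 500 bp).

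Most members had no other member within 50 kb. Linking members whose centres lay within 50 kb gave 911 groups, of which 765 were single members. A further 139 groups held 2 to 4 members, 310 in all, and 7 held 5 or more, 99 in all. The median distance to the nearest other member was 142 kb (quartiles 20.3 and 616 kb). Peaks with NIPBL only and peaks with neither are far more numerous, and the median distance within each of those classes was 18.0 and 24.1 kb.

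The 3 runs with most members held 78 of the 1174 (6.64%) in short stretches of chromosomes 11 and Y. The run at chr11:3001393-3097845 held 38 members among 63 Rad21, 93 NIPBL and 83 Med1 intervals, and Med1 covered 53.9% of its 96.5 kb. The run at chrY:2852019-2901648 held 29 members among 50 Rad21, 40 NIPBL and 36 Med1 intervals in 49.6 kb, with 75.5% under Med1. The run at chrY:2780430-2797306 held 11 members among 16 Rad21, 16 NIPBL and 17 Med1 intervals in 16.9 kb, with 77.5% under Med1.

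These runs differed from the other members in how the intervals of the 3 lists were arranged. Whether the ChIP input libraries also have high signal in these runs was not tested, so their intervals are described only as called. Within them, Med1 covered a median of 100% of the Rad21 interval and NIPBL 58.6%, whereas at the other 1096 members NIPBL covered the more (87.5%) and Med1 the less (70.5%). The Med1 centre lay a median of 273 bp from the Rad21 centre in the runs and 97.8 bp elsewhere. A Med1 centre fell inside the NIPBL interval at 42.3% of run members and at 83.5% of the others. The run on chromosome 11 begins close to the first assembled bases of that chromosome. Of the 86 Rad21 peaks that end by 3.1 Mb on chromosomes other than Y, 47 were members, 38 of them on chromosome 11.

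A run of 5 members lay at chr17:39980450-39985873, inside 1 NIPBL interval (chr17:39979831-39985886) and 1 Med1 interval (chr17:39979831-39985887). Those were the widest intervals of both lists, at 6056 and 6057 bp, with the same start and with ends 1 bp apart. Rad21 was called there as 5 separate peaks of 406 to 1431 bp that together covered 81.8% of the run. No base of these 5 members lay outside NIPBL or Med1. Input signal in this stretch was likewise not tested.

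The other runs of 5 or more were open arrays in which members stood among many intervals of 1 or 2 proteins. At chr17:35315493-35439182, 6 members stood among 13 Rad21, 39 NIPBL and 19 Med1 intervals in 124 kb. At chr7:71055738-71157326, 5 members stood among 19 Rad21, 46 NIPBL and 7 Med1 intervals in 102 kb. At chr17:73266549-73299119, 5 members stood among 9 Rad21, 15 NIPBL and 5 Med1 intervals in 32.6 kb, as a pair at one end and 3 at the other. Rad21 covered 3.64% to 10.1% of these 3 runs, against 19.3% to 45.4% of the 3 runs of 10 or more and 81.8% of the run under a single NIPBL interval.

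**Figure D4:**
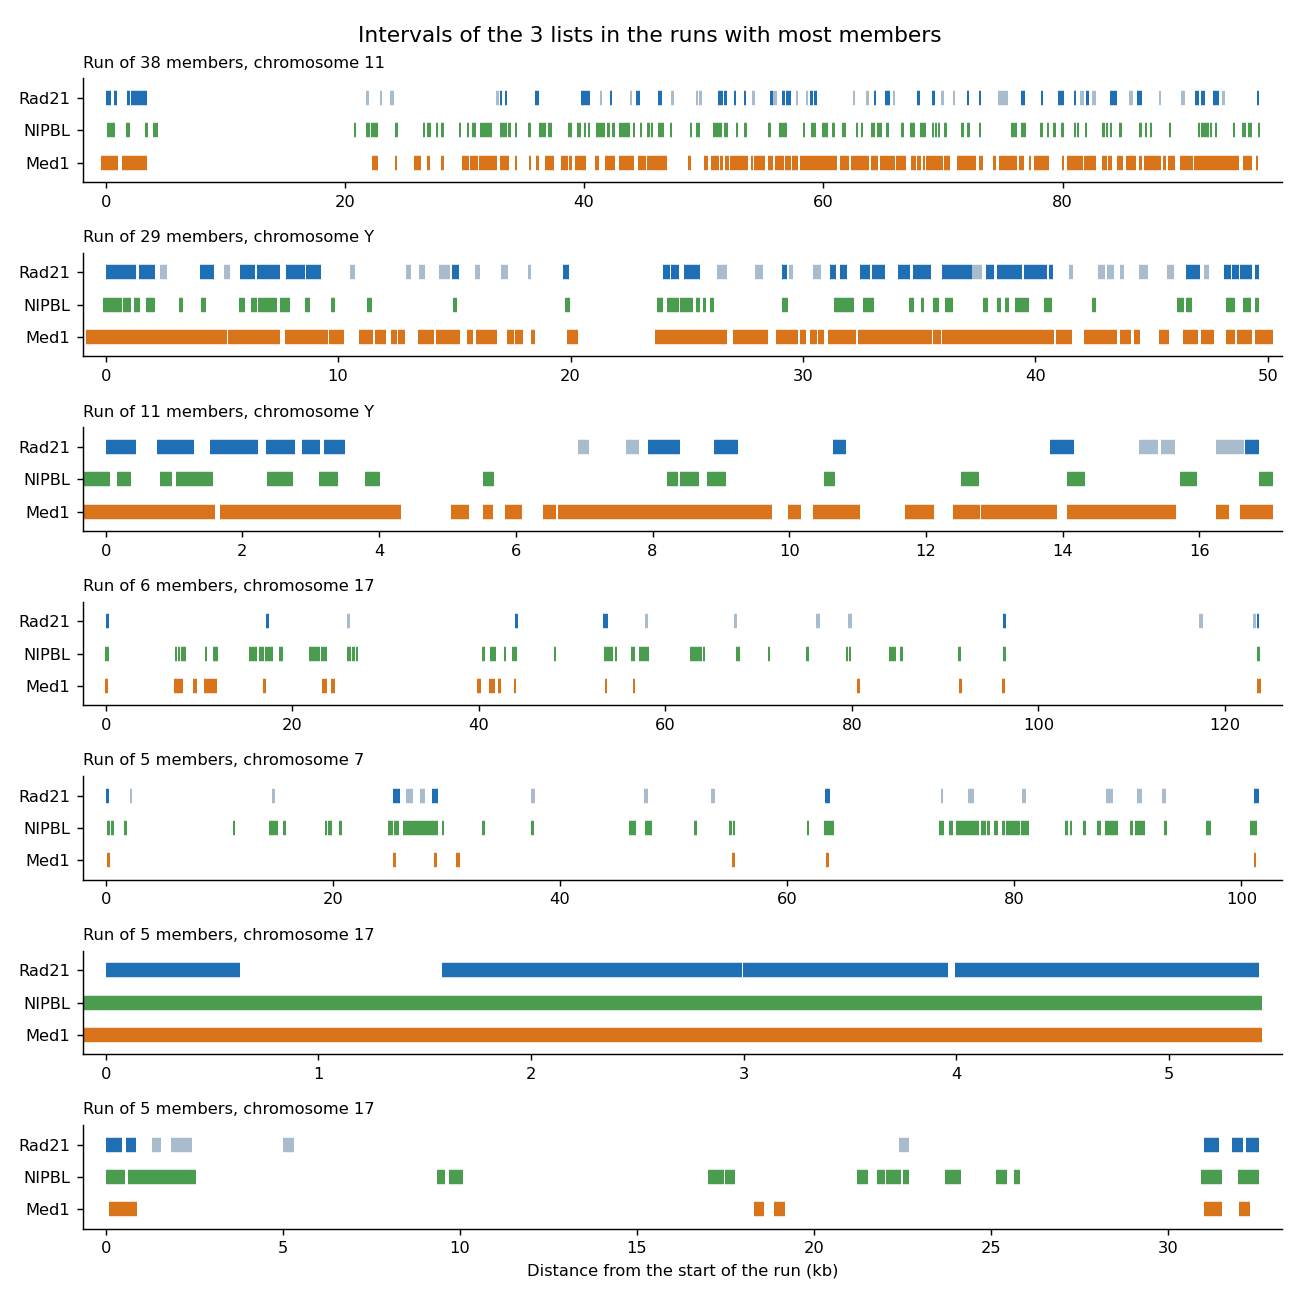
Intervals of the 3 lists in the 7 runs with at least 5 members, drawn to scale against the distance in kb from the start of each run; dark blue Rad21 intervals are members and pale ones are not. In the 3 runs at the top Med1 (orange) covers 53.9% to 77.5% of the run, and in the first run of 5 on chromosome 17 NIPBL and Med1 are each a single interval.

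Members occurred on all 21 chromosomes in the lists and were unevenly spread among them. On chromosome 17, 128 of 1296 Rad21 peaks (9.88%) were members, and on chromosome 1, 123 of 1816 (6.77%). On chromosome Y 46 of 92 were members, 40 of them in the 2 runs. On the other 18 chromosomes the share ran from 2.46% to 6.17%, or to 4.55% with the runs of 10 or more left out, with a median of 3.48%. Chromosomes 1 and 17 together held 251 members, 8.07% of their Rad21 peaks, against 3.65% on the other 18.

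The Med1 list was also denser on chromosomes 1 and 17. The share of Rad21 peaks with NIPBL was 37.4% on chromosome 1 and 43.0% on chromosome 17, against 37.1% pooled over the other 18, where it ran from 23.1% to 43.3% and only chromosome 11 was above chromosome 17. The Med1 list held 53.2 and 51.4 intervals per 100 NIPBL intervals on chromosomes 1 and 17, against 22.3 to 30.8 on the other 18. Med1 was present at 20.3% of the Rad21 and NIPBL peaks of chromosomes 1 and 17 and at 9.84% of those elsewhere. The share of Med1 intervals that overlapped Rad21 was 10.7% on chromosomes 1 and 17 and 11.0% on the other 18.

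The higher Med1 ratio was seen in nearly all windows of both chromosomes. In windows of 10 Mb with at least 20 NIPBL intervals, the ratio was above 30.8, the highest whole-chromosome value elsewhere, in 19 of 19 windows of chromosome 1 and in 8 of 9 of chromosome 17, compared with 75 of 228 windows on the other 18 chromosomes, where single windows reached 223. The exception on chromosome 17, the window from 50 to 60 Mb, had 24.7 Med1 per 100 NIPBL intervals, and 14 of its 145 Rad21 peaks (9.66%) were members. Median Med1 width was 361 bp on chromosomes 1 and 17 and 346 bp on the other 18. Without chromosomes 1 and 17, 923 members were left. The part of the Med1 surplus in the members' excess on these chromosomes was not tested.

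**Figure D5:**
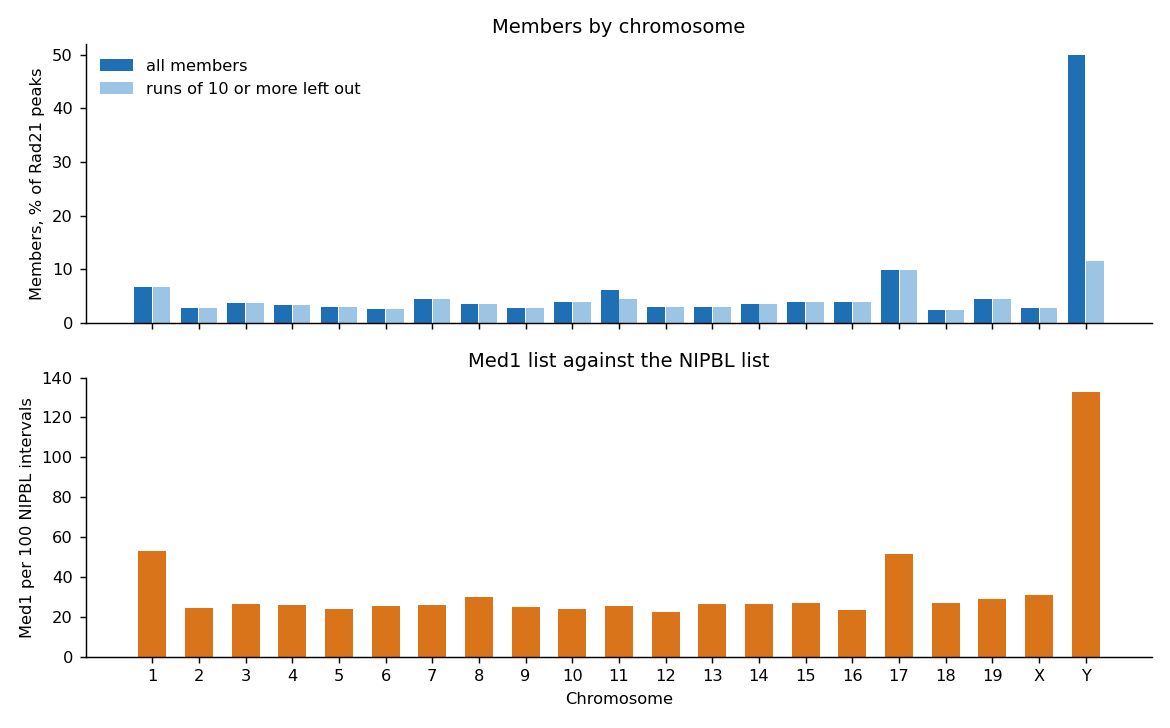
Top, members as a percentage of the Rad21 peaks of each chromosome, for all members (dark) and with runs of 10 or more members left out (pale). Bottom, Med1 intervals per 100 NIPBL intervals. Chromosomes 1 and 17 stand above the other autosomes in both panels (6.77% and 9.88%; 53.2 and 51.4), and most of the height of chromosome Y comes from 2 runs.

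The RNA libraries show the genes of the 3 proteins in cells of this type, though not their protein level. Library totals ran from 6500819 to 9384505 counts. CPM are counts scaled to the TMM-normalised total of the genes that passed the low-count filter. All 10 markers of double-positive thymocytes were above 1 CPM in every library. Their summed levels were 12467 to 13698 CPM in wild type and 8414 to 9632 CPM in the knockout. Rag1 was the largest of them, at a mean of 4744 CPM over all libraries, so these sums do not show how each marker differed. The summed markers of B cells, myeloid cells, erythroid cells, thymic epithelium and NK or γδ T cells stayed between 0.415 and 33.4 CPM in wild type. The summed epithelial markers were 1.80 and 2.73 CPM in wild type and 9.72 and 12.4 CPM in the knockout, most of it from Epcam, and the part of this in the genotype contrast was not tested. The fibroblast and endothelial list reached 149 to 151 CPM in wild type and 96.6 to 104 CPM in the knockout, most of it from Pecam1, while its members Pdgfra and Cdh5 had no counts. In bulk RNA, fewer cells of a type and less RNA per cell cannot be told apart.

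Rad21 RNA stood at 271 and 233 CPM in the wild type libraries and at 67.9 and 65.7 CPM in those of the knockout. The groups did not overlap, and the log2 difference, knockout over wild type, was -1.91 with an SE of 0.12 over 2 libraries a group (edgeR quasi-likelihood, adjusted p = 0.000862). Of all 12003 genes tested, 12.8% passed an adjusted p of 0.05, 7.6% as higher and 5.17% as lower. Nipbl stood at 788 and 797 CPM in wild type and 684 and 789 CPM in the knockout, with groups that overlapped by less than 1 CPM (log2 difference -0.11, SE 0.11). Med1 stood at 303 and 267 CPM in wild type and 282 and 253 CPM in the knockout, with overlapping groups (log2 difference -0.09, SE 0.11). Neither was called by edgeR, at adjusted p of 0.587 for Nipbl and 0.649 for Med1, which does not show that their levels were equal.

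Among the 16 genes of cohesin, its loader and regulators, Rad21 alone passed, and the median log2 fold change was -0.07 against -0.01 over all genes tested. Among 32 Mediator genes 1 was higher and 1 lower, with a median of 0.06. Med30 was lower, at 27.6 and 27.4 CPM in wild type and 14.0 and 15.1 CPM in the knockout (log2 difference -0.92, SE 0.16, edgeR adjusted p = 0.0144). Med13l, a part of the kinase module that binds Mediator reversibly, was higher, at 316 and 318 CPM against 411 and 408 CPM (log2 difference 0.37, SE 0.09, edgeR adjusted p = 0.0444). With any 1 of the 4 libraries removed it was no longer called. Both were named after their values were seen.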

How the data were processed

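The authors deposited 1 list of ChIP-seq intervals per protein as chromosome, start and end, an "other" unit with no score; the file names point to the SWEMBL peak caller and removal of duplicates, and the build is mm9 according to the submitters' processing notes. Whether inputs were used in calling is not given in the sources used here. The deposited RNA table holds count equivalents per Ensembl gene from rRNA-depleted RNA, per the labels and header, which were treated as estimated counts and are whole numbers throughout. The knockout columns are headed Rad1KO, and were matched to the Rad21 KO samples by the rest of the name. Its aligner, counter and use of strand are likewise not given.

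Intervals were read as BED and printed 1-based. Overlaps were computed in Python 3.11.15 and checked on simulated intervals. Runs are groups of members linked at 50 kb between centres. Counts were tested with edgeR 4.0.16 (filterByExpr, TMM, quasi-likelihood test, Benjamini-Hochberg), tested on simulated data; symbols matched 17342 of 17849 identifiers. The labels do not say whether RNA libraries came from separate animals, so the p-values reflect only library-to-library spread, which may be technical. The rule for named items was the 5 widest members, the 5 runs with most members (7 with ties), the edge cases, and Rad21; Nipbl and Med1 were added as the proteins studied, and Med13l and Med30 because the text counts them. Members, lists and settings were chosen with earlier results of these data known. Results that need start sites or sequence of mm9 were not computed.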

Additional observations from a re-analysis of the deposited data

How the results depend on the processing

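The number of members stayed within 1.5 times of 1174 under 5 of 6 other ways to define the overlap: 1090 with at least 50 bp of each partner, 798 with at least 50% of the interval under each, 830 with the Rad21 centre inside each, 1150 with a base shared by all 3 and 1179 after merging partner intervals within 500 bp. It was 386 when NIPBL and Med1 intervals had to be as wide as their list medians. The share of members with another within 50 kb (34.8%) was 21.6% at 12.5 kb and 44.7% at 100 kb, and 30.2% without the runs of 10 or more, which was added once the data had been seen; the median width of 331 bp was 210 bp for the part shared by all 3. Chromosomes 1 and 17 held 10.4% and 11.2% of the members covered by 50% or more, close to their 10.5% and 10.9% of all members.

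The count of genes changed in the knockout, 1533, was 1518 with DESeq2 size factors, 1299 in DESeq2, 1490 in limma-voom, 433 with no filter on low counts and 947 to 1438 when 1 library was left out, the lowest without wild type replicate 2. With the replicate number as a block, 1025 genes passed. Same-numbered libraries had deviations correlated at 0.0431 over genes. With 2 libraries a group, this single value cannot show whether same-numbered libraries were prepared together. Rad21 and Med30 stayed called under every alternative run, and Med13l did not with the block (edgeR adjusted p = 0.0717) or with no filter (edgeR adjusted p = 0.095). Leaving out 1 library put the Nipbl log2 difference between -0.20 and 0.000895 and that of Med1 between -0.18 and 0.00342. The sign turned for Nipbl without Rad21 KO replicate 1, and for Med1 both without Rad21 KO replicate 2 and, at 0.00269, without wild type replicate 1, and none passed the threshold; the cause was not tested. The alternatives on start sites, on genes with a member there and on the CTCF word were not run, since no annotation or genome of the build of the lists was used.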
